A study of Mus musculus with 16 samples.

Results

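Transcripts of 45 genes of the cell division cycle were followed in lumbar spinal cord of the mouse, where the motor neurons of the hindlimb lie. The genes were taken by symbol from the 23284 rows of the count table, and all 45 were found. They comprise 13 genes of DNA replication and its nucleotide supply, 3 genes of entry into S phase (the G1/S genes Ccne1, Ccne2 and E2f1) and 29 genes of mitosis. Poly-A RNA of 16 animals, all aged 150 days, was sequenced. The cWT group carried Atg7 labelled cWT, read here as the control of the conditional knockout, and no SOD1 transgene. The cKO group carried the Atg7 cKO genotype, read here as a conditional knockout of the E1-like enzyme of autophagosome formation, and no SOD1 transgene. The cWT_SOD1 group joined Atg7 cWT with SOD1G93A, a mutant human SOD1 transgene that models amyotrophic lateral sclerosis, and the cKO_SOD1 group joined Atg7 cKO with the same transgene. Each group held 4 animals. The series title places the inhibition of autophagy in motor neurons, and the Cre driver is not given in the sources used here.

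A dividing cell copies its DNA in S phase and separates the copies in M phase. Cyclin E and E2F transcription factors start S phase, the MCM helicase and its loaders open the origins, and PCNA holds the polymerases on DNA, while ribonucleotide reductase, thymidylate synthase and thymidine kinase supply nucleotides. Later, cyclins A and B with CDK1, Aurora and Polo kinases, the spindle checkpoint and mitotic kinesins drive chromosome segregation and cytokinesis. Most cells of the adult cord do not divide, but microglia, astrocytes and oligodendrocyte precursors can, and microglia are known to proliferate in mutant SOD1 mice.

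Library totals ran from 14989026 to 20892530 counts, and every group held 2 females and 2 males as read from sex-linked transcripts. Atg7 itself averaged 31.4 ± 2.51 CPM (counts scaled to library size; SD, n = 4) in cWT and 28.0 ± 1.06 in cKO, and did not pass the test between them. A count of the whole cord cannot check a deletion limited to motor neurons. Library 1 of cWT_SOD1 stood apart from the other libraries of its group, with a summed level of disease-associated microglial markers of 1263 CPM against 1972 to 2766. All 45 genes passed the filter on low counts. Of them 6, all mitotic (Ccnb1, Bub1, Ttk, Aurkb, Melk and Ube2c), passed only through cWT_SOD1, so they were tested only because they were high there. Their values are given as a description, and counts are also given with them set aside, which leaves 39 members of which 23 are mitotic. Ccnb2 and Cdc6 would not have passed on the libraries without the transgene alone, and they stay among the 39.

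Elements known from cell cycle promoters were counted around the annotated start of each member. Promoter windows from RefSeq (GRCm38.p6, from 250 bases before the start to 50 after it) were present for 38 members, namely 12 replication, 2 G1/S and 24 mitotic genes. The letters of 3 kinds of element were searched on both strands. The E2F core was TTCCCGC or TTCGCGC or TTGCCGC or TTGGCGC, the cell cycle homology region (CHR) was TTTGAA or TTCGAA, and the NF-Y box was CCAAT. The reverse of TTGGCGC can share its last letters with CCAAT. An E2F core was present in 8 of 12 replication genes (66.7%) and 5 of 24 mitotic genes (20.8%), against 10.9% of all 27025 genes in the table. A CHR was present in 19 of 24 mitotic genes (79.2%) and 2 of 12 replication genes (16.7%), against 21.7% of all genes. NF-Y boxes were present in 20 mitotic genes (83.3%) and 8 replication genes (66.7%), against 41.1% of all genes. A CHR together with an NF-Y box was found in 18 mitotic genes (75%), against 9.65% of all genes. These matches describe letters in a window and are not measured binding. The 170 bases upstream of the start are shown for the 4 mitotic genes with the largest rise with the transgene, 5′ to 3′ on the gene's strand, with every match to the 3 kinds of letters in capitals.
Top2a, chr11:99024190-99024359, minus strand: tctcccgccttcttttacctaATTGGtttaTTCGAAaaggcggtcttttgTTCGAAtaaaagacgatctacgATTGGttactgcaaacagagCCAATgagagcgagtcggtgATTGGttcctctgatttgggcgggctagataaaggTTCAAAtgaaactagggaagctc
Mki67, chr7:135716380-135716549, minus strand: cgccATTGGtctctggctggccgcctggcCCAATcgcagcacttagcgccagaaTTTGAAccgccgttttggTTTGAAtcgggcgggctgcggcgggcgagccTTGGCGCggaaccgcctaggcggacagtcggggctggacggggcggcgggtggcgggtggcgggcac
Ube2c, chr2:164769759-164769928, plus strand: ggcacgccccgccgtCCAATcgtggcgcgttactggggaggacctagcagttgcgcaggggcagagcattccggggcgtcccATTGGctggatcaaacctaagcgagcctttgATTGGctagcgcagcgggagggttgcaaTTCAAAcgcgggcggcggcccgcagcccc
Ccnb1, chr13:100786487-100786656, minus strand: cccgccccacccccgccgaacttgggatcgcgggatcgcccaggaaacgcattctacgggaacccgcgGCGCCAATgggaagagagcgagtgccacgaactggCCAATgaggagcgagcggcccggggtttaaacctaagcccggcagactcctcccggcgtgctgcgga
Top2a carried 3 CHR and 4 NF-Y matches in this stretch and no E2F core, and Ube2c carried 1 CHR and 3 NF-Y matches. Mki67 carried 2 CHR matches, 2 NF-Y matches and 1 E2F core. Ccnb1 had no CHR match, and its only E2F core overlaps one of its 2 NF-Y boxes. Mcm6 and Mcm5, which encode subunits of the replicative helicase, are shown for the replication class because they carry overlapping E2F cores.
Mcm6, chr1:128359706-128359875, minus strand: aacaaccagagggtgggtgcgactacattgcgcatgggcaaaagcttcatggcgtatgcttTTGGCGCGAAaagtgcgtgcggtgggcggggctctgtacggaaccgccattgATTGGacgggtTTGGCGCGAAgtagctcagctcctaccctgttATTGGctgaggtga
Mcm5, chr8:75109339-75109508, plus strand: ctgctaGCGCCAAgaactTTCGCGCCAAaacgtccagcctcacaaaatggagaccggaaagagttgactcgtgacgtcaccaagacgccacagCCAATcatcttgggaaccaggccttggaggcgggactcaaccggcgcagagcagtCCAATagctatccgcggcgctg
Mcm6 carried 4 E2F cores and 2 NF-Y matches in this stretch, and Mcm5 carried 3 and 2. Ccne1 and E2f1 are shown because they fell with the transgene while most members rose.
Ccne1, chr7:38107491-38107660, minus strand: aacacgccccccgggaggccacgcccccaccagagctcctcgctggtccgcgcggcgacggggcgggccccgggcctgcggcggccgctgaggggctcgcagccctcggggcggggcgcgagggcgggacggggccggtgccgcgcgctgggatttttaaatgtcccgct
E2f1, chr2:154569427-154569596, minus strand: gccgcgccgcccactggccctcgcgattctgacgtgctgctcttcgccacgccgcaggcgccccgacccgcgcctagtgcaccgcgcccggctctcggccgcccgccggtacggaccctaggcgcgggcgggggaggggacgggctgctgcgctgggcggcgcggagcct
None of the 3 kinds of letters occurs in these 2 stretches, which says only that these exact letters are not there.

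With the SOD1 transgene in Atg7 cWT animals, most genes of the division cycle rose. Of the 45 members 37 were higher and 3 lower in cWT_SOD1 than in cWT at an adjusted p under 0.05 (edgeR quasi-likelihood test, Benjamini-Hochberg over 15426 genes). The background was large, since 33.2% of all genes tested were called higher and 33.1% lower. Of the members 28 were called and over 2-fold higher, against 11.2% of all genes. These include all 6 that passed the filter only through cWT_SOD1. With the 6 set aside 31 of 39 were higher and 3 lower, and with no filter 40 of the 45 were again called. In 36 members, again with all 6 among them, every cWT_SOD1 library lay above every cWT library, against 27.6% of all genes. The median log2 fold change was 1.29 over the members, 1.18 with the 6 set aside and 0.01 over all genes. In a whole-cord extract, more cells of a type and more RNA per cell cannot be told apart.

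Mki67, the antigen Ki-67 that coats mitotic chromosomes and is used to mark cycling cells, lies at chr7:142881471-142908062 in mm9. The cWT libraries held 1.43, 0.971, 1.56 and 1.99 CPM and the cWT_SOD1 libraries 17.0, 15.5, 16.6 and 16 CPM. In cKO it stood at 1.91, 1.22, 2.83 and 3.61 CPM and in cKO_SOD1 at 6.38, 4.61, 6.29 and 8.01 CPM. The cWT_SOD1 libraries lay far above all others, and the cKO_SOD1 libraries lay between them and the transgene-free ones with no overlap. The rise in cWT was 10.9-fold (log2 3.44 ± 0.24 SE, adjusted p = 2.45e-09, edgeR).

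Top2a, DNA topoisomerase II alpha, which untangles sister chromatids, lies at chr11:98854261-98885503 in mm9. Its cWT libraries held 0.819, 1.03, 1.72 and 0.886 CPM and its cWT_SOD1 libraries 13.9, 12.9, 13.2 and 14.0 CPM. Its cKO libraries held 1.54, 1.01, 1.83 and 2.49 CPM and its cKO_SOD1 libraries 4.63, 4.35, 5.31 and 5.27 CPM. The order of the groups was that of Mki67, again without overlap between the transgenic groups. Top2a had the largest fold change of the 45 members, at 12.1-fold (log2 3.6 ± 0.21 SE, adjusted p = 2.5e-10, edgeR).

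**Figure D1:**
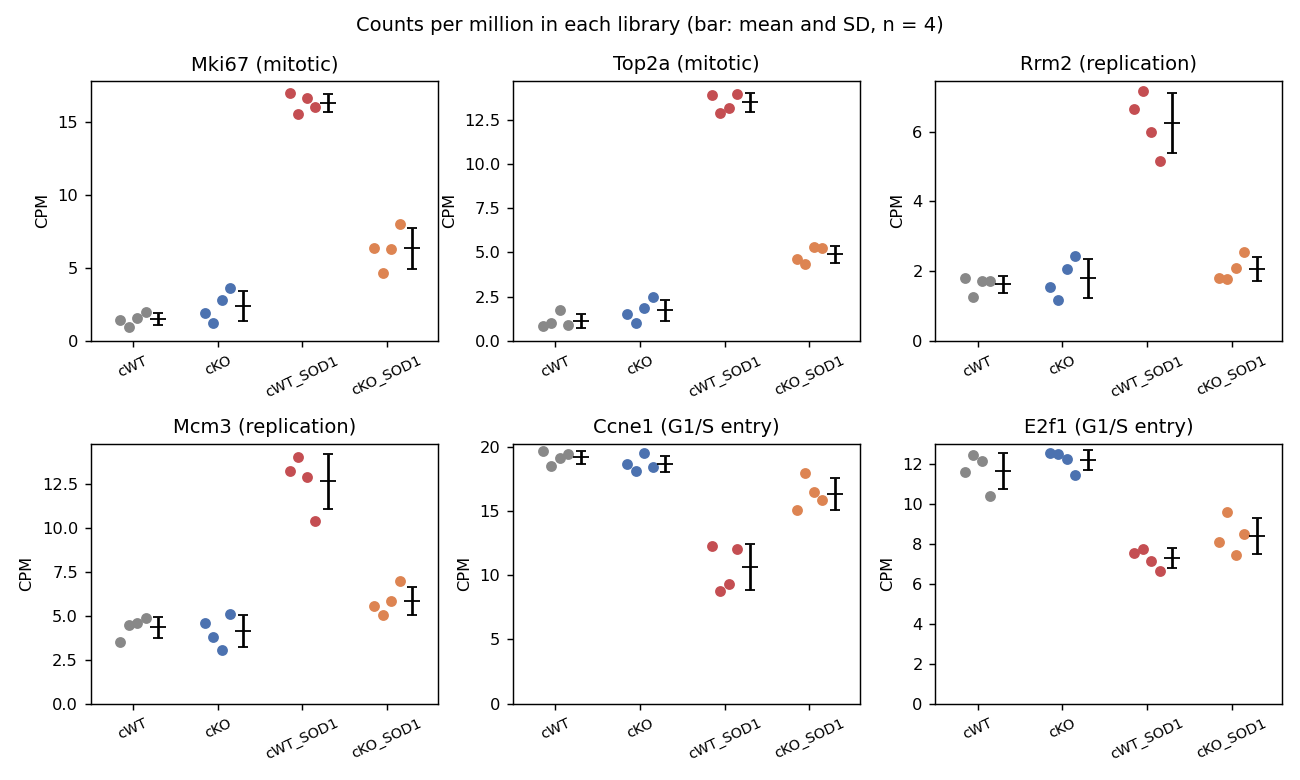
CPM (y axis, from 0) of 6 members in each of the 16 libraries by group (x axis), with points for libraries and bars for the mean and SD (n = 4). Mki67, Top2a, Rrm2 and Mcm3 were highest in every cWT_SOD1 library, while Ccne1 and E2f1 were lower in every cWT_SOD1 library than in any cWT library.

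Among the replication genes 12 of 13 were higher in cWT_SOD1 than in cWT and none was lower, with a median log2 fold change of 0.89 (1.86-fold). Rrm2, the regulated small subunit of ribonucleotide reductase, rose most in this class. Its levels were 1.79, 1.26, 1.72 and 1.72 CPM in cWT and 6.64, 7.15, 6 and 5.17 CPM in cWT_SOD1, without overlap (3.84-fold, log2 1.94 ± 0.19 SE, adjusted p = 1.17e-07, edgeR). Tk1, thymidine kinase of the salvage pathway, rose 3.33-fold, from 0.358, 1.26, 0.444 and 0.332 CPM to 1.66, 2.18, 2.10 and 1.99 CPM. One cWT library lay well above the other cWT libraries for Tk1, and the groups still did not overlap. The Tk1 span in mm9 overlaps that of Afmid, and the use of strand in counting is not given. Rrm1, the large subunit partner of Rrm2, moved much less, from 33.3 ± 0.482 to 40.6 ± 2.32 CPM (SD, n = 4; log2 0.29 ± 0.06 SE).

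The 6 subunits of the MCM2-7 helicase did not move alike. Mcm3 rose 2.92-fold (4.36 ± 0.607 to 12.7 ± 1.59 CPM), Mcm6 1.92-fold and Mcm5 1.86-fold, while Mcm4 rose 1.33-fold and Mcm7 1.19-fold. Levels of Mcm2 were 9.52, 8.11, 9.44 and 9.42 CPM in cWT and 11.6, 9.17, 9.12 and 10.7 CPM in cWT_SOD1. Its groups overlapped, and its log2 fold change of 0.15 ± 0.11 SE did not pass the test (adjusted p = 0.241, edgeR). Levels of Mcm7 were 11.8, 12.8, 11.8 and 11.7 CPM in cWT and 12.5, 13.8, 16.2 and 14.6 CPM in cWT_SOD1, and its groups overlapped too. Its call was lost without cWT_SOD1 replicate 3 (adjusted p = 0.0881, edgeR), and the span of Mcm7 in mm9 also holds Mir106b, Mir25 and Mir93.

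The helicase loaders rose, Cdc6 2.39-fold and Cdt1 1.88-fold. Cdc6 was scarce, at 3 to 9 counts per cWT library and 12 to 14 counts per cWT_SOD1 library. Tyms, thymidylate synthase, rose 1.6-fold. Pcna, the sliding clamp that also serves DNA repair, rose 1.4-fold on counts (19.6 to 27.5 CPM). By FPKM (a level per transcript length and library size) it was the highest of the class, at 31.4 in cWT and 48.4 in cWT_SOD1.

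The genes that start S phase went the other way or did not move. Ccne1, cyclin E1, held 19.7, 18.5, 19.1 and 19.4 CPM in the cWT libraries and fell to 12.2, 8.78, 9.35 and 12.1 CPM in cWT_SOD1. All 4 transgenic libraries were lower, and the log2 fold change was -0.86 ± 0.09 SE (1.81-fold lower, adjusted p = 3.83e-07, edgeR). E2f1, the activator of S-phase genes, fell from 11.6, 12.4, 12.2 and 10.4 CPM to 7.57, 7.77, 7.14 and 6.63 CPM, also without overlap (log2 -0.68 ± 0.09 SE, adjusted p = 3.24e-06, edgeR). Ccne2, cyclin E2, was measured at 2.25, 2.80, 2.78 and 2.22 CPM in cWT and 2.52, 2.91, 2.78 and 2.32 CPM in cWT_SOD1, and did not pass the test. Of all 15426 genes 28.9% were lower without overlap in this comparison. Pan-neuronal and motor neuron markers fell in the same libraries, with 5 of 5 and 8 of 8 called lower, against 33.1% of all genes. Neuronal markers summed to 7190 to 7747 CPM in cWT, 6845 to 7181 in cKO, 2147 to 3490 in cWT_SOD1 and 4938 to 5396 in cKO_SOD1, and their part in the fall of Ccne1 and E2f1 was not tested.

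Of the 29 mitotic genes 25 were higher, 1 was lower and 3 did not pass the test, with a median log2 fold change of 1.57 (2.97-fold). Of the 25 that rose, 24 rose over 2-fold, among them all 6 that passed the filter only through cWT_SOD1. With the 6 set aside 19 of 23 were higher and 1 lower, with a median of 1.36. Ube2c, the E2 enzyme of the anaphase-promoting complex, was measured at 0.102, 0.171, 0.222 and 0 CPM in cWT and at 1.66, 1.51, 1.53 and 1.33 CPM in cWT_SOD1. The cWT values are 0 to 4 counts per library and the cWT_SOD1 values 20 to 27, so the fitted 11.7-fold rise (log2 3.54 ± 0.42 SE) rests on few counts in cWT.

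The cyclins and their kinase rose together in cWT_SOD1. Ccnb1, cyclin B1, which passed the filter only through cWT_SOD1, had 1 to 2 counts per cWT library and 11 to 19 per cWT_SOD1 library. Ccnb2, cyclin B2, which had 6 to 9 counts per cWT library, rose 4.58-fold. Cdk1, the kinase they activate, rose 4.17-fold (1.11 ± 0.214 to 4.64 ± 0.432 CPM), and Ccna2, cyclin A2, rose 3.11-fold. Foxm1, the transcription factor of late cell cycle genes, rose 2.25-fold. The spans of Ccna2 and Foxm1 in mm9 overlap those of Exosc9 and 4933413G19Rik. Among other members, the spans of Cdc20, Nusap1 and Ccne2 overlap those of Elovl1, Oip5 and Ints8.

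Most spindle checkpoint and kinase genes rose, over a wide range. Bub1b, a checkpoint kinase, rose 4.58-fold, Birc5, survivin, 2.44-fold, Plk1, the Polo kinase, 2.34-fold and Cdc20, an activator of the anaphase-promoting complex, 2.72-fold. Another 4 genes of this kind passed the filter only through cWT_SOD1 and had few counts elsewhere. Aurkb, the Aurora kinase that partners survivin in the chromosomal passenger complex, had 1 to 6 counts per cWT library and 22 to 35 per cWT_SOD1 library. The checkpoint kinase Bub1 had 1 to 4 and 17 to 24, Ttk, the MPS1 kinase, 3 to 9 and 12 to 28, and Melk 2 to 4 and 8 to 19. Aurka, the Aurora kinase of spindle poles, averaged 2.11 ± 0.244 CPM in cWT and 2.33 ± 0.612 CPM in cWT_SOD1 (SD, n = 4) and did not pass the test.

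Of the kinetochore and spindle genes, Cenpf rose 5.39-fold, Hmmr 5.11-fold, Cenpe 2.97-fold, Kif11 2.93-fold, Tpx2 2.23-fold and Nusap1 1.47-fold. Of the cytokinesis genes, Ect2 rose 2.57-fold, Kif23 2.46-fold and Prc1 2.27-fold. Racgap1, which with Kif23 forms the centralspindlin complex, fell instead, from 20.3, 22.7, 19.0 and 18.0 CPM to 17.2, 16.2, 17.3 and 17.0 CPM. The groups did not overlap, and the change was small (log2 -0.24 ± 0.07 SE, adjusted p = 0.00494, edgeR).

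Anln, an actin-binding protein of the cleavage furrow that is also known as a protein of adult myelin, was by far the most abundant mitotic member. Its level in cWT was 50.1 FPKM, and the next mitotic member, Racgap1, was at 7.17 FPKM. Its cWT libraries held 289, 273, 262 and 253 CPM and its cWT_SOD1 libraries 218, 253, 258 and 246 CPM, with overlap, and did not pass the test (log2 -0.14 ± 0.09 SE). Of 6 oligodendrocyte markers 4 were called lower and none higher in the same comparison, where 33.1% of all genes were called lower. Any link of these markers to Anln was not tested.

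Kif20a, the MKLP2 kinesin of cytokinesis, took 2 separate levels in the deposited counts, and these did not follow the groups. It stood at 9.06, 2.40, 2.50 and 8.47 CPM in cWT, 2.65, 2.44, 2.27 and 1.85 in cKO, 3.38, 3.86, 9.86 and 9.42 in cWT_SOD1 and 2.58, 2.30, 8.48 and 2.64 in cKO_SOD1. The span of Kif20a in mm9 overlaps those of Cdc23, a subunit of the anaphase-promoting complex, and Brd8. Cdc23, looked at after the values of Kif20a were seen, stood at 53.5 to 58.0 CPM in the 5 libraries where Kif20a was high and at 36.4 to 43.0 CPM in the others. No comparison called Kif20a on counts, and the part of the neighbouring genes in its counts was not tested. The deposited FPKM gave another picture, at 0.343 to 0.813 in cWT, 0.325 to 0.438 in cKO, 0.826 to 1.61 in cWT_SOD1 and 0.519 to 1.02 in cKO_SOD1. On that scale every cWT_SOD1 library lay above every cWT library, and the rise with the transgene in cWT passed the test (limma on log2(FPKM + 1), log2 0.514, adjusted p = 0.00142), as did the lower level in cKO_SOD1 than in cWT_SOD1 (log2 -0.45, adjusted p = 0.00458). Whether Kif20a changed therefore depends on which deposited table is read.

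**Figure D2:**
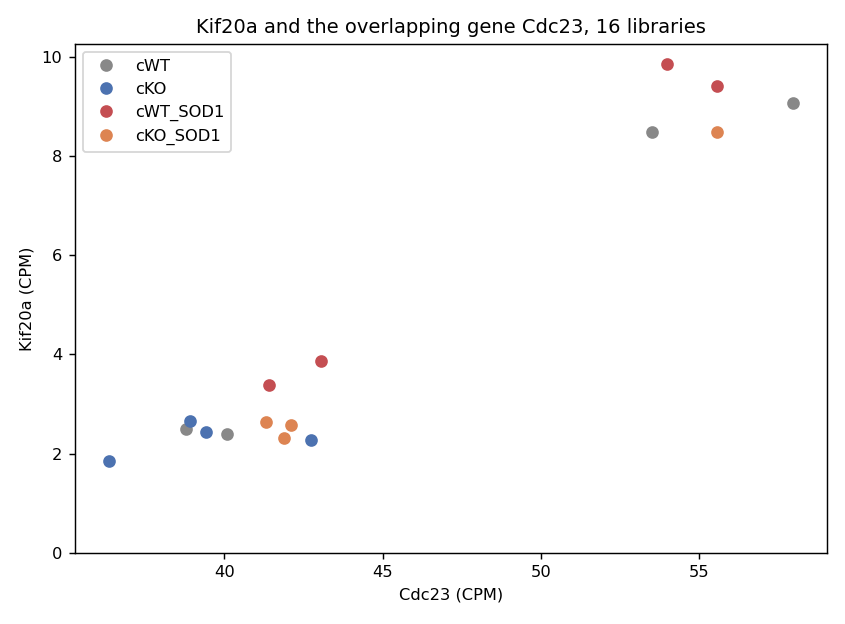
Level of Kif20a (y axis, CPM) against the overlapping gene Cdc23 (x axis, CPM) in the 16 libraries, coloured by group. The 5 libraries with Kif20a above 8 CPM, from 3 groups, are those with Cdc23 above 53 CPM.

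Replication and mitotic genes rose to different degrees, and how far they differed depended on the scale. The median log2 fold change was 0.89 for replication and 1.57 for mitotic genes in cWT_SOD1 against cWT, or 1.36 for the 23 mitotic genes that did not pass the filter through cWT_SOD1 alone. Mitotic genes started lower, with a median of 1.11 CPM in cWT against 4.36 for replication genes and 22.5 for all genes. Among members with a mean of 1 to 10 CPM in cWT, a range chosen after the data were seen, the medians were 0.91 for 7 replication genes and 1.32 for 14 mitotic genes. On log2(FPKM + 1), which shrinks changes of low genes, the medians were 0.59 and 0.57, so the order of the classes was lost. Lower members had larger fold changes (Spearman rho -0.842 across the 45 genes between FPKM in cWT and log2 fold change). Genes are not independent replicates, and these axes share the cWT libraries. With the level taken from the cKO libraries, which do not enter that fold change, rho was -0.817. Both values include the 6 members that passed the filter only through cWT_SOD1. Those were low without the transgene and high in cWT_SOD1 by selection, so both values are a description.

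**Figure D3:**
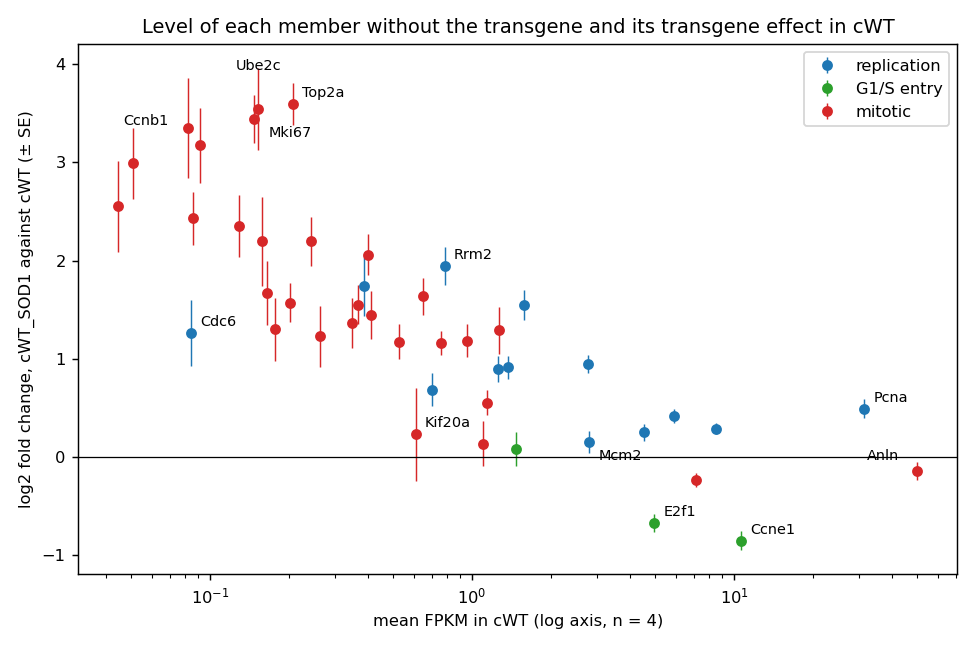
Log2 fold change of cWT_SOD1 against cWT with its SE (y axis) against mean FPKM in cWT (x axis, log scale, n = 4) for the 45 members, coloured by class. Mitotic genes crowd at low levels with large changes, and Anln and Pcna stand at the highest levels with changes of -0.14 and 0.49.

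The FPKM of each class were also summed in each library, where abundant genes weigh most. The replication genes summed to 59.8 to 64.9 FPKM in cWT, 60.4 to 63.3 in cKO, 93.3 to 103.5 in cWT_SOD1 and 67.4 to 71.4 in cKO_SOD1. A single gene holds much of each sum, since Anln exceeded all other mitotic genes together in 15 of 16 libraries and Pcna all other replication genes in 10 of 16. The mitotic genes without Anln summed to 16.6 to 18.7 FPKM, 18.2 to 20.2, 38.9 to 43.4 and 23.4 to 25.1 in the same order. Without Anln the ratio of the mitotic to the replication sum was 0.289 ± 0.0244 in cWT, 0.311 ± 0.0140 in cKO, 0.416 ± 0.0138 in cWT_SOD1 and 0.346 ± 0.00865 in cKO_SOD1 (SD, n = 4). On that measure libraries with the transgene had higher ratios than every library without it. With Pcna left out as well, the ratio was 0.584 ± 0.0306 in cWT and 0.822 ± 0.0259 in cWT_SOD1. With all members kept, the direction turned, from 1.1 ± 0.0717 in cWT to 0.895 ± 0.0443 in cWT_SOD1, so the higher ratio holds only for sums without Anln. The 3 G1/S genes summed to 16.2 to 17.7 FPKM in cWT and 9.95 to 12.7 in cWT_SOD1.

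**Figure D4:**
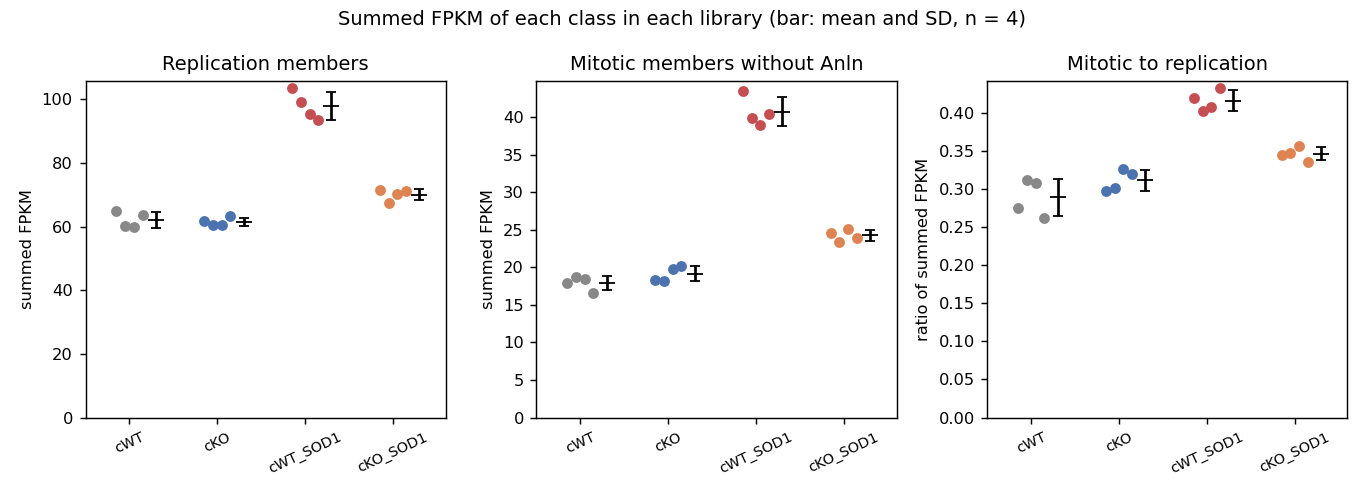
Summed FPKM of the replication members, of the mitotic members without Anln, and the ratio of the sums (y axes, from 0) in each library by group, with the mean and SD (n = 4). Both sums were highest in cWT_SOD1 and intermediate in cKO_SOD1, and the ratio ran from 0.40 to 0.43 in cWT_SOD1 against 0.26 to 0.31 in cWT. With Anln included the ratio was lower in cWT_SOD1 than in cWT.

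Replicates varied more for mitotic than for replication genes where the counts were low. The median coefficient of variation within cWT was 28.3% for mitotic and 8.62% for replication genes. In cWT_SOD1, where the mitotic genes were higher, it was 14.5% and 11.5%. Within cWT_SOD1, library 1 had the lowest summed level of microglial markers (1914 CPM against 2467 to 2909) and the highest mitotic sum, at 43.4 FPKM.

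In Atg7 cKO animals few members were called for the same transgene, though most had a positive log2 fold change. It was positive in 39 of the 45 members, against 7705 of 15426 genes. Of the 45 members 7 were higher and 1 was lower in cKO_SOD1 than in cKO, where 4.8% of all genes were called higher and 2.48% lower. With the 6 set aside 5 were higher and 1 lower. The 7 were Mcm6, Ccnb2, Cdk1, Mki67, Top2a, Bub1 and Melk, and E2f1 was lower. Top2a rose 2.83-fold (log2 1.5 ± 0.21 SE, adjusted p = 0.000164, edgeR) and Mki67 2.63-fold (log2 1.39 ± 0.24 SE, adjusted p = 0.00112). E2f1 fell from 12.6, 12.5, 12.2 and 11.5 CPM in cKO to 8.08, 9.58, 7.45 and 8.50 CPM in cKO_SOD1, without overlap (log2 -0.54 ± 0.09 SE). The median log2 fold change was 0.19 for replication and 0.50 for mitotic genes.

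Cdk1 rose from 0.531, 0.531, 0.721 and 1.07 CPM in cKO to 1.11, 1.36, 2.05 and 1.64 CPM in cKO_SOD1, just without overlap (log2 1.11 ± 0.25 SE). Mcm6 was measured at 6.69, 6.63, 6.93 and 7.22 CPM in cKO and 8.90, 6.91, 9.32 and 9.30 CPM in cKO_SOD1, with overlap in 1 library. Ccnb2 held 4 to 12 counts per library in cKO and 15 to 19 in cKO_SOD1, Bub1 3 to 7 and 8 to 17, and Melk 0 to 5 and 7 to 13. The calls of Mcm6, Ccnb2, Bub1 and Melk were each lost in at least 4 of the 16 fits without 1 library, and those of Top2a, Mki67, Cdk1 and E2f1 in none. The number of members called ranged from 4 to 9 in these fits, being 4 without cKO replicate 2 or cKO_SOD1 replicate 3 and 5 without cKO replicate 1 or 3 or cKO_SOD1 replicate 1.

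**Figure D5:**
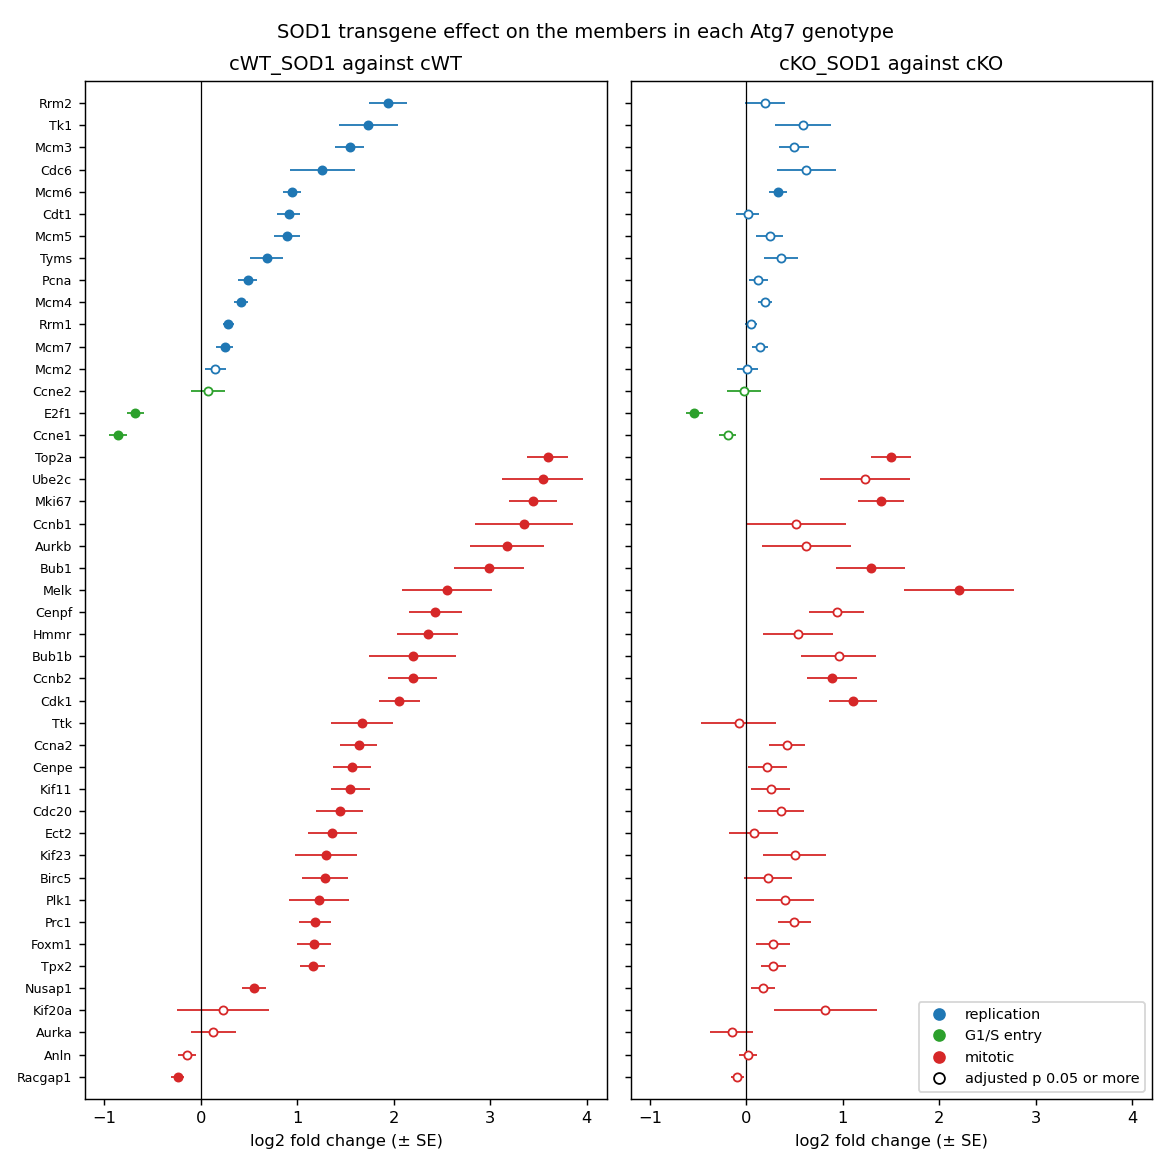
Log2 fold change with its SE (x axis) of each member (rows, by class) for cWT_SOD1 against cWT (left) and cKO_SOD1 against cKO (right), with filled points at an adjusted p under 0.05. Filled points number 40 on the left and 8 on the right, and Top2a moves from 3.6 to 1.5.

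The difference between those responses was tested directly as an interaction. Of the 45 members 28 had a negative interaction that was called, their rise with the transgene in cWT being smaller or absent in cKO. The interaction was positive and called in 1, Ccne1, whose fall was also smaller in cKO (log2 -0.19) than in cWT (log2 -0.86). Of all genes 21.8% were called lower and 23.2% higher. The median interaction was -0.62 for replication genes, of which 8 of 13 were called, and -1.22 for mitotic genes, of which 20 of 29 were called. With the 6 members that passed the filter only through cWT_SOD1 set aside, 15 of 23 mitotic genes were called, with a median of -1.06. The interaction was -2.09 ± 0.30 SE for Top2a and -2.05 ± 0.35 SE for Mki67 on the log2 scale. It was -1.75 ± 0.28 SE for Rrm2, whose CPM difference with the transgene was 4.62 in cWT and 0.258 in cKO, or 5.59% of the former. The corresponding percentage was 26.6% for Mki67, 25.6% for Top2a and 1.25% for Cdt1. E2f1 differed from them, since its difference in cKO was 86.6% of that in cWT and its interaction of 0.14 ± 0.12 SE did not pass the test. Melk, with log2 fold changes of 2.55 in cWT and 2.21 in cKO, had an interaction of -0.35 ± 0.94 SE, an error that can hold a difference of the size seen for Top2a.

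Among transgenic animals most members were lower with Atg7 cKO. Of the 45 members 33 were lower and 1, Ccne1, was higher in cKO_SOD1 than in cWT_SOD1, where 29.1% of all genes were called in each direction. This comparison shares the cWT_SOD1 libraries with the one in cWT. In 28 members every cKO_SOD1 library lay below every cWT_SOD1 library, against 24.1% of all genes. Of the 6 members that passed the filter only through cWT_SOD1, all but Melk are among these. Of the replication genes 10 of 13 were lower (median log2 -0.50), and of the mitotic genes 23 of 29 (median log2 -0.97). With the 6 set aside 17 of 23 mitotic genes were lower (median log2 -0.78).

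Of the 39 members left with the 6 set aside, Hmmr, a spindle protein that binds hyaluronan, had the largest fall (2.46 ± 0.447 to 0.732 ± 0.227 CPM, SD, n = 4, log2 -1.76 ± 0.29 SE, adjusted p = 5.63e-05, edgeR). Aurkb, one of the 6, stood at 1.66 ± 0.325 CPM in cWT_SOD1 and 0.340 ± 0.115 CPM in cKO_SOD1, which is 3 to 9 counts per library. Rrm2 fell from 6.64, 7.15, 6 and 5.17 CPM in cWT_SOD1 to 1.81, 1.78, 2.10 and 2.54 CPM in cKO_SOD1, without overlap (log2 -1.60 ± 0.19 SE). Its cKO_SOD1 values overlapped those of cKO. Top2a fell by 1.46 and Mki67 by 1.36 on the log2 scale. Ccne1 held 15, 18.0, 16.4 and 15.8 CPM in cKO_SOD1, above all cWT_SOD1 libraries (log2 0.63 ± 0.09 SE, adjusted p = 2.33e-05). Members that did not pass were Mcm2, Cdc6, Tk1, Ccne2, E2f1, Bub1b, Aurka, Plk1, Kif20a, Racgap1 and Anln. Bub1b stood at 1.29, 5.66, 2.19 and 1.89 CPM in cKO_SOD1, with library 2 far above the other libraries, and at 1.85, 2.91, 3.12 and 3.25 CPM in cWT_SOD1.

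Without the transgene no member was called between cKO and cWT by edgeR, DESeq2 or limma, where edgeR called 4 genes in all (0.0259%). At an unadjusted p under 0.05, 5 members differed in edgeR, as did 543 of all genes tested. They were Mki67, Top2a and Bub1b, higher in cKO, and Cdk1 and Kif20a, lower in cKO. The median log2 fold change was 0.27 for mitotic and 0.00 for replication genes.

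Related genes outside the 45 were taken from lists fixed by function. Of 8 G1 cyclins and kinases 7 were higher in cWT_SOD1 than in cWT and 1 was lower. Ccnd1, cyclin D1, which drives exit from rest with CDK4 and CDK6, averaged 58.9 CPM in cWT, 59.9 in cKO, 186 in cWT_SOD1 and 76.3 in cKO_SOD1 (log2 1.66 ± 0.07 SE in cWT and 0.35 ± 0.07 SE in cKO). Myc, a growth-promoting transcription factor, averaged 3.50, 2.73, 11.6 and 5.51 CPM in the same order, and Ccnd2 averaged 38.3, 36.9, 68.7 and 44.9 CPM. Cdc25a, the phosphatase that activates CDK2, fell from 12.3 to 9.46 CPM, the direction of Ccne1 and E2f1.

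Brakes of the cycle rose as well. Of 9 CDK inhibitors and pocket proteins tested, 7 were higher and 1, Cdkn1c, was lower in cWT_SOD1 than in cWT. Rb1, the retinoblastoma protein that restrains E2F, rose from 51.2 to 123 CPM, and Cdkn2c, the p18 inhibitor of CDK4 and CDK6, from 0.724 to 4.04 CPM. Cdkn1a, the p21 inhibitor and p53 target, was singled out after its values were seen. Its cWT libraries held 46.8, 49.6, 23.6 and 25.3 CPM and its cWT_SOD1 libraries 50, 285, 258 and 181 CPM. Library 1 of cWT_SOD1 lay near the cWT level while its Mki67 was the highest of the group. Cdkn2a, a senescence-linked inhibitor, was too scarce for testing, at 0 to 2 counts per library without the transgene, 6 to 19 in cWT_SOD1 and 0 to 5 in cKO_SOD1. Of 7 p53 targets and checkpoint genes 4 were higher, against 33.2% of all genes, led by Ccng1 (76.8 to 203 CPM), and Wee1, which inhibits CDK1, was lower (42.3 to 24.5 CPM).

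Other genes of the same classes are set beside the members by counts. Of 31 other mitotic genes tested 22 were higher and 2 lower in cWT_SOD1 than in cWT, with a median log2 fold change of 1.38. Some of them had means below the filter cutoff of 0.544 CPM outside cWT_SOD1. Kif18b, for example, averaged 0.0825 CPM in cWT, 0.171 in cKO, 1.26 in cWT_SOD1 and 0.395 in cKO_SOD1. Genes that passed only through cWT_SOD1 were not set aside here, so this count and median are a description. Of 23 other replication genes 10 were higher and 2 lower, with a median of 0.20, and this share is near the 33.2% of all genes called higher. The other mitotic genes also started lower, with a median of 0.986 CPM in cWT against 7.29 for the other replication genes. By summed CPM the order was the reverse. All 33 other mitotic genes summed to 304 to 321 CPM in cWT and 266 to 292 in cWT_SOD1, and the other replication genes to 277 to 281 and 282 to 304. Cit, an abundant gene of the mitotic list, fell by more than the whole mitotic sum did (134 to 62.6 CPM). The reversed order therefore rests on that gene. Pbk, a mitotic kinase, rose from 0.302 to 3.32 CPM and Spc25, of the NDC80 kinetochore complex, from 0.778 to 4.33 CPM. Cit, citron kinase of cytokinesis that is also expressed in neurons, fell from 134 to 62.6 CPM. Uhrf1, which recruits maintenance methylation to new DNA, rose from 0.970 to 3.01 CPM, whereas Dut, which clears dUTP, fell from 22.5 to 14.9 CPM. The lists were chosen with earlier results of these data known, so their medians are a description.

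Markers of some cell types, such as microglia and astrocytes, moved with the members, and those of others did not. Summed levels of 8 microglia and macrophage markers were 364 to 409 CPM in cWT, 356 to 481 in cKO, 1914 to 2909 in cWT_SOD1 and 696 to 757 in cKO_SOD1. In cWT_SOD1 against cWT 8 of 8 were called higher, where 33.2% of all genes were called higher and 33.1% lower. Of 6 markers of disease-associated microglia 6 were higher, and they summed to 159 to 188 CPM in cWT, 157 to 191 in cKO, 1263 to 2766 in cWT_SOD1 and 248 to 278 in cKO_SOD1. Spp1 held most of this sum outside cWT_SOD1. It averaged 165 CPM in cWT, 157 in cKO, 967 in cWT_SOD1 and 159 in cKO_SOD1. In cKO_SOD1 against cKO 5 of the 6 were called higher, where 4.8% of all genes were. Astrocyte markers summed to 6858 to 7289 CPM in cWT, 6705 to 7461 in cKO, 19036 to 23562 in cWT_SOD1 and 10608 to 11307 in cKO_SOD1, with 6 of 7 higher with the transgene in cWT. Markers of oligodendrocyte precursors summed to 578 to 630, 565 to 635, 601 to 709 and 592 to 630 CPM in the same order, with 3 of 6 higher and 1 lower. Markers of the meninges, which wrap the cord, summed to 86.9 to 132 CPM in cWT, 105 to 142 in cKO, 184 to 316 in cWT_SOD1 and 138 to 176 in cKO_SOD1, with 3 of 4 higher. Of ependymal markers 2 of 4 tested were higher. Of endothelial and pericyte markers 2 of 6 were higher and 1 lower, near the share of all genes called higher. The 3 blood monocyte and neutrophil markers tested did not pass (edgeR). Those of T, B and NK cells summed to 0.667 to 1.5, 0.318 to 1.37, 3.08 to 7.7 and 0.527 to 1.99 CPM, with 1 of 11, Cd4, tested and called higher in cWT_SOD1. Cd4 averaged 0.208 CPM in cWT, 0.117 in cKO, 1.43 in cWT_SOD1 and 0.237 in cKO_SOD1. It was tested only because it was high in cWT_SOD1, so its call is a description. Cd8a, of the same list, had no count in any cWT library and averaged 0.392 CPM in cWT_SOD1. Which cells held the transcripts of the members was not tested.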

How the data were processed

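RNA sequencing of the lumbar cord covered 16 animals in 4 groups of 4. The authors deposited raw counts per gene and FPKM values (per transcript length and library size). Per the submitters' processing notes, the tools were Cufflinks 2.0.2, TopHat2 2.0.4 and bcl2fastq 1.8.4 and the build mm9, with no role given. The counter and its strand setting are not given in the sources used. Depth was 14989026 to 20892530 counts per library.

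The count test was edgeR 4.0.16 under R 4.3.3 (TMM, filterByExpr, quasi-likelihood F-test, all 16 libraries, a coefficient per group). Benjamini-Hochberg adjustment ran over the 15426 genes that passed, and called means an adjusted p under 0.05. Standard errors are the log2 fold change over the root of F. CPM used TMM library sizes. Levels per length are FPKM. No pair of libraries in a group was as alike as counting noise alone would make it. The procedure was tested on simulated data. Alternatives were RLE and upper-quartile scaling, no filter, DESeq2 1.42.0, limma 3.58.1 on log2(FPKM + 0.1) and log2(FPKM + 1) of the deposited FPKM, only the groups compared, a replicate block, a term for sex, and each library left out.

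The members and lists were chosen with earlier results of these data known. All members may be named. Values per library are given for Mki67, Top2a, the 2 highest and 2 lowest fold changes per class with the transgene in cWT, and members called in the cKO comparisons, and other values per library were chosen after they were seen. Of other lists, up to 4 genes with the smallest p in each direction may be named. Promoter windows are from RefSeq (GRCm38.p6), while gene spans are from the deposited tables in mm9, and neither was converted. One marker list is not reported here.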

Additional observations from a re-analysis of the deposited data

Results flagged for a closer look

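Of the 180 sets of 4 libraries looked at (45 members in 4 groups), 12 held a library far from the other 3, where chance flags about 1 in 20. In cWT, replicate 2 was the lowest for Mcm2 (8.11 CPM) and Rrm2 (1.26 CPM) and the highest for Mcm7 (12.8 CPM) and Tk1 (1.26 CPM). In cKO, Ccnb2 was low in replicate 1 (0.212 CPM), Cenpf in replicate 2 (0.796 CPM) and Anln in replicate 4 (206 CPM). In cWT_SOD1, Cdc6 was low in replicate 2 (0.671 CPM), and Mcm5 (5.61 CPM) and Melk (0.453 CPM) were low in replicate 3. In cKO_SOD1, replicate 3 was the highest for Mcm4 (23.6 CPM) and Kif20a (8.48 CPM).

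The transgene effect differed between Atg7 genotypes in 29 members by the interaction term (edgeR, adjusted p under 0.05). The log2 interactions of the replication genes were Mcm3 -1.05, Mcm5 -0.65, Mcm6 -0.62, Cdt1 -0.90, Pcna -0.36, Rrm1 -0.24, Rrm2 -1.75 and Tk1 -1.15. Those of the mitotic genes were Ccna2 -1.22, Ccnb1 -2.84, Ccnb2 -1.31, Cdk1 -0.95, Foxm1 -0.89, Mki67 -2.05, Top2a -2.09, Bub1 -1.70, Ttk -1.75, Aurkb -2.55, Birc5 -1.06, Cdc20 -1.08, Ube2c -2.32, Cenpe -1.35, Cenpf -1.50, Kif11 -1.30, Prc1 -0.69, Tpx2 -0.88, Hmmr -1.82 and Ect2 -1.29. The interaction of Ccne1 was 0.67.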

How the results depend on the processing

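All 40 members called for the transgene effect in cWT kept their call under the other 9 settings wherever they were tested, and Melk was not tested with only the groups compared. Of the 40, 39 kept it without any 1 library. Between cKO_SOD1 and cWT_SOD1 30 of 34 members kept their call under the other settings and 28 without any 1 library (31 were called without cWT_SOD1 replicate 1 and 30 without cKO_SOD1 replicate 1), and for the interaction 26 and 23 of 29. Members called for the transgene effect in cKO ranged from 4 to 9 without 1 library and from 6 to 8 otherwise, where Bub1 was not tested with only the groups compared and Melk neither there nor by DESeq2. The replicate numbers of the titles did not pair the libraries in a steady way. Deviations from the group mean correlated at -0.253 to 0.312 between libraries of the same number in different groups. For replicate 4 the correlation was positive in every pair of groups, so a weak pairing is not excluded. With the replicate block 40 members were called for the transgene in cWT, 7 for the transgene in cKO, 0 for cKO alone, 34 for cKO among transgenic animals and 29 for the interaction, against 40, 8, 0, 34 and 29 without it.

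Median log2 fold changes for the transgene in cWT were 0.592 for replication and 0.574 for mitotic genes on log2(FPKM + 1). For mitotic genes the median was 1.36 with the 6 members that passed the filter only through cWT_SOD1 set aside, 1.31 on log2(FPKM + 0.1), 1.32 at 1 to 10 CPM and 1.52 to 1.71 without 1 library. Between cKO_SOD1 and cWT_SOD1 the replication median was -0.693 at 1 to 10 CPM and -0.644 to -0.381 without 1 library, and the mitotic median was -0.346 on log2(FPKM + 1). The added pseudocount shrinks low genes by construction, and for the other shifts the cause was not tested. The ratio of summed FPKM in cWT_SOD1 minus that in cWT was 0.127 without Anln, -0.202 with all members and 0.238 without Anln and Pcna. Signs of fold changes turned only in members that were not called. Bub1b between cKO_SOD1 and cWT_SOD1 was 0.00325 with no filter and -0.618 to 0.209 without 1 library. Aurka there ranged from -0.260 to 0.0316, and Kif20a for the transgene in cWT from -0.0368 to 0.563. For the transgene effect in cKO, genes called over the whole table were 740 higher and 383 lower, against 952 and 213 on log2(FPKM + 0.1), 810 and 220 on log2(FPKM + 1) and 1235 and 1245 with only the groups compared. Few counts limit Ccnb1, Ube2c, Aurkb, Bub1, Ttk, Melk and Cdc6.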
